A study of Homo sapiens with 6 samples.

Results

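The data described here are the cGAMP response of WT/- cells, a clone of the ovarian cancer cell line SKOV3 that kept the wild-type allele of STING1 and lost the HAQ allele. Of the 60498 genes in the deposited table, the 15126 with a mean estimated count of at least 10 over the 6 libraries of the series were analysed, and each was compared between the cGAMP library and the control library of WT/-. A gene was called raised or lowered when its normalized count differed by at least 1.5-fold between these 2 libraries. There was 1 library a side, so the comparison has no replicate check, and no p-value was taken across genes.

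SKOV3 (SK-OV-3) is an established line of human ovarian adenocarcinoma. The parent cells carry a WT and a HAQ allele of STING1 (WT/HAQ), where HAQ is the common haplotype with 3 amino acid changes. The study cut both flanks of the coding sequence with a pair of guide RNAs in a lentiviral CRISPR vector, selected the cells with puromycin and picked clones by limiting dilution, which gave a line with WT STING1 only (WT/-) and a line with HAQ STING1 only (HAQ/-). Each edited line is therefore a clone, and a difference between lines cannot be told apart from a difference between clones. The treated cells of all 3 lines were made permeable with a digitonin buffer that held 2'3'-cGAMP at 10 μg/mL, stayed in it for 30 min, and were then kept in fresh medium for 4 h. The labels give the other library of each line as the control, and how the control cells were handled was not given in the sources used here.

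STING is an adaptor on the endoplasmic reticulum that binds cGAMP, the cyclic dinucleotide made by the DNA sensor cGAS. Bound STING recruits the kinase TBK1, which activates the transcription factor IRF3, and IRF3 together with NF-kB turns on the genes of type I and type III interferons (IFN). Secreted IFN acts back on the cells through JAK kinases and STAT factors and raises the IFN-stimulated genes (ISGs), most of which block steps of viral replication.

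The WT/- control library held 17060710 counts and the WT/- cGAMP library 12444822, the smallest total of the series, where the other 4 libraries held from 13686498 to 17608467. Normalized counts below are scaled to a common library size by the TMM method, and intervals are 95% Wilson intervals that cover counting error only. The 10 housekeeping genes of a fixed list had log2 fold changes from -0.27 to 0.29, with 0 raised and 0 lowered, and mitochondrially encoded genes took 5.17% of the counts of the control and 5.58% of those of the cGAMP library. All 11 markers of epithelial ovarian carcinoma had counts in both libraries, with 55407 and 34787 counts of ERBB2, 10063 and 3721 of PAX8 and 14176 and 8607 of KRT8 in the WT/- control and cGAMP libraries. CDH1, MUC1, EPCAM, KRT19 and CLDN4 had from 165 to 635 counts, and WT1 had 2 and 4. All 5 leukocyte markers had at most 2 counts in either WT/- library. The 3 endothelial markers had at most 19 counts. Of the 5 fibroblast markers, COL1A1 had 1092 and 839 counts, DCN and LUM had from 201 to 241, and COL3A1 and PDGFRB had at most 3.

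cGAMP changed WT/- cells in both directions. It raised 1796 genes, or 11.9% of those analysed, and lowered 1327, or 8.77%. Counts of list members below are to be read beside these shares. Another 27 genes had at most 3 counts in both libraries and were given no fold. The counting interval lay beyond no change for 1462 (81.4%) of the raised genes and 1004 (75.7%) of the lowered genes, and 916 and 471 genes had an interval entirely beyond 1.5-fold. Raised genes reached much larger folds. At 4-fold or more there were 378 raised and 68 lowered genes, at 16-fold or more 99 and 6, and at 64-fold or more 19 and 0. The raised genes together took 4.60% of all counts of the control library and 13.7% of those of the cGAMP library, and the lowered genes 9.51% and 4.71%. In the control library the median normalized count was 41.1 for the genes that rose, 106 for those that fell and 407 for the rest. The control count also enters the fold, and low counts pass 1.5-fold more easily by counting error, so these medians depend in part on the calls. Of 13094 protein-coding genes 1396 (10.7%) rose and 981 (7.49%) fell, and of 1234 long noncoding RNA genes 245 (19.9%) rose and 223 (18.1%) fell. These classes were not matched for abundance, and their calls were not split by counting interval, so a stronger response of either class was not tested.

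**Figure D1:**
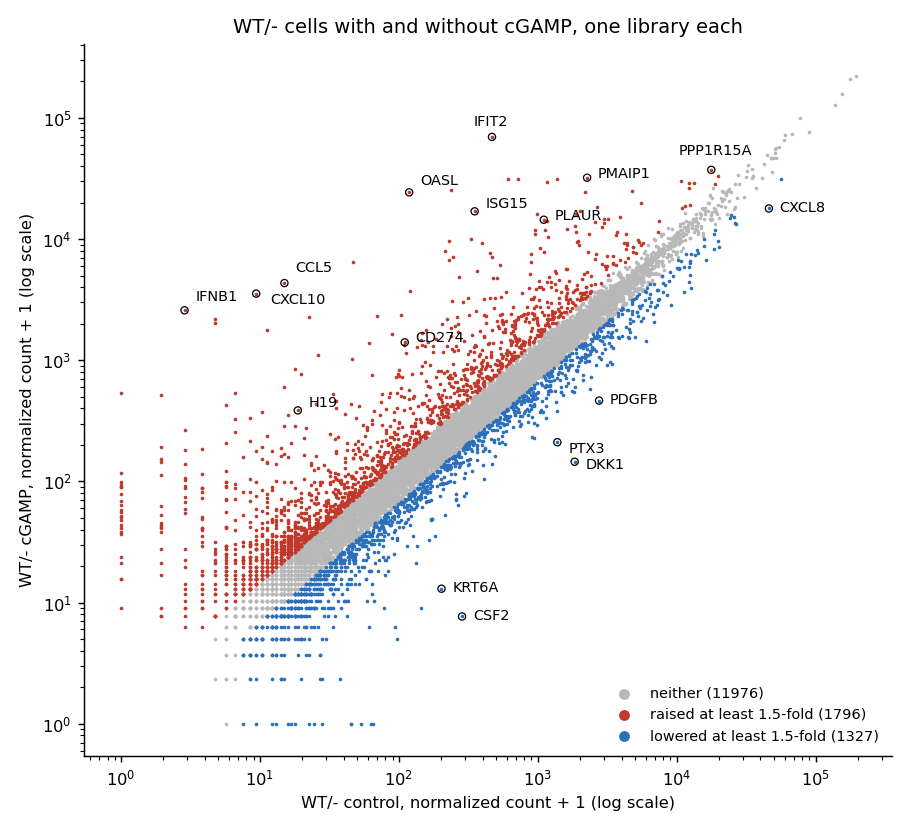
Each point is a gene, with its normalized count plus 1 in the WT/- control library on the x axis and in the WT/- cGAMP library on the y axis, both on log scales. The 1796 raised genes (red) reach far above the band of genes that were neither raised nor lowered (grey), with IFNB1 rising from 1.87 to 2583 normalized counts and CXCL10 from 8.40 to 3549, while the 1327 lowered genes (blue) lie closer to it, apart from CSF2 and KRT6A at the bottom.

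Promoters of some raised and lowered genes are shown first, because they hold letters found before many of the raised antiviral genes and letters that raised and lowered chemokine genes have in common. The stretches are from RefSeq on GRCh38, written 5′ to 3′ on the strand of the gene. In the first set, capitals mark 2 copies of GAAA with 2 further bases between them, or the reverse complement with TTTC, the core of the IFN-stimulated response element (ISRE), which IRF factors and the IFN-activated STAT complex bind. ISG15 (chr1:1013367-1013496, plus strand) has overlapping matches that start 113 and 107 bases before the gene. HERC5 (chr4:88456979-88457118, plus strand) has 3 matches on the opposite strand. CXCL10 (chr4:76023498-76023737, minus strand) has a match at 221 bases, and IFIT1 (chr10:89392504-89392533, plus strand) and SAMD9 (chr7:93118096-93118125, minus strand) are shown as 30 bases around their matches.
ISG15: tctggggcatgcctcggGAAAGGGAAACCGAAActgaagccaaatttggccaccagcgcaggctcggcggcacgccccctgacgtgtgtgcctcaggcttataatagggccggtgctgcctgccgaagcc
HERC5: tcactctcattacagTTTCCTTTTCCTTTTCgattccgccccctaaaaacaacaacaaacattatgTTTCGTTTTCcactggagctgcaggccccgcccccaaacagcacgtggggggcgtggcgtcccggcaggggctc
CXCL10: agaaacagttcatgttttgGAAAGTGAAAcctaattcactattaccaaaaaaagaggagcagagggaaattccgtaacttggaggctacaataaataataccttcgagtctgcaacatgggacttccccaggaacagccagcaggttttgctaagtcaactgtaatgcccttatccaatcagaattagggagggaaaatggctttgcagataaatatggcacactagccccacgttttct
IFIT1: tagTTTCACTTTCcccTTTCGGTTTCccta
SAMD9: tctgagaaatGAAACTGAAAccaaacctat

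In the second set, capitals mark GGAANTTCC, the inner letters of a kappa-B site, which NF-kB binds. IFNB1 (chr9:21077943-21078022, minus strand) and CXCL11 (chr4:76036071-76036160, minus strand) were among the most strongly raised genes. CXCL1 (chr4:73869305-73869334, plus strand), CXCL2 (chr4:74099253-74099282, minus strand), CXCL3 (chr4:74038748-74038777, minus strand) and CXCL8 (chr4:73740468-73740497, plus strand) were lowered. The match starts 65 bases before IFNB1, 75 before CXCL11, 77 or 78 before CXCL1, CXCL2 and CXCL3, and 91 before CXCL8. These distances are from the RefSeq start, and the stretch of CXCL3 overlaps 1 exon in GENCODE.
IFNB1: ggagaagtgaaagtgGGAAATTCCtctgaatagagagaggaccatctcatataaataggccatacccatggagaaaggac
CXCL11: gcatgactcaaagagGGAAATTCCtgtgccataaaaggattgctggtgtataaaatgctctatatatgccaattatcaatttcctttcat
CXCL1: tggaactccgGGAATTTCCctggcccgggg
CXCL2: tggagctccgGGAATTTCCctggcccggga
CXCL3: tggagctccgGGAATTTCCctggcccggcc
CXCL8: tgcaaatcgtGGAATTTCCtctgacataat

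IFN genes themselves were among the most strongly raised. In bulk RNA, more responding cells and more RNA per cell cannot be told apart. IFNB1, the type I IFN that most cell types can make, went from 2 to 1934 counts, a log2 ratio of 10.43 (interval 8.57 to 12.30). IFNL1, a type III IFN, went from 4 to 1633 counts (log2 fold change 9.19, interval 7.83 to 10.55). IFNL3 went from 0 to 403 counts, at least 192-fold higher, and IFNL2 from 1 to 388. These 2 genes are near-identical copies whose reads the counting could split, and their sum went from 1 to 791 counts (interval of the log2 ratio 7.64 to 12.65). The remaining members had low counts or fell. IFNA1 had 10 counts in each library (log2 fold change 0.52, interval -0.71 to 1.74), IFNE, an IFN of epithelia, fell from 107 to 31 counts (-1.27), and IFNK and IFNW1 had 0 counts in both. IFNL4, under the limit of mean count, had 0 and 9 counts.

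The receptors for IFN did not change by the threshold, and their signaling proteins did so in part. Of 8 genes for IFN receptors and JAK kinases, only JAK2 was raised, or 12.5% beside 11.9% of all genes. JAK2 went from 133 to 1286 normalized counts (log2 fold change 3.27, interval 3.02 to 3.52). IFNAR1, IFNAR2, JAK1 and TYK2 had log2 fold changes from -0.14 to -0.05. Of 6 STAT genes, 2 rose, among them STAT2, the DNA-bound partner in the type I IFN complex, from 883 to 5182 (2.55), and STAT3, STAT5A, STAT5B and STAT6 lay between -0.11 and 0.21. Of 7 IRF genes, 4 rose and 0 fell. IRF7, which widens the range of IFN genes that are transcribed, went from 294 to 1438 normalized counts (2.29), IRF2 from 243 to 931 (1.94), IRF9 from 545 to 1414 (1.38) and IRF1 from 10982 to 18074 (0.72). IRF3, which STING activates by phosphorylation, went from 2077 to 1406 (-0.56), short of the threshold. Among 9 feedback inhibitors, 4 rose and 1 fell: USP18 (5.08), SOCS1 (3.54), SOCS3 (1.30) and TIPARP (1.07) against SOCS2 (-0.73).

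In WT/- the STING1 gene went from 353 to 553 normalized counts (log2 fold change 0.65, interval 0.45 to 0.85), just past the threshold. Of the 12 analysed genes of the cGAS-STING pathway and of cGAMP handling, 4 rose and 0 fell. The largest rise was that of SAMHD1, which degrades deoxynucleotides, from 450 to 7728 (4.10), then IFI16, a nuclear DNA sensor, from 1019 to 4512 (2.15), and TREX1, a DNase that removes cytosolic DNA, from 74.7 to 216 (1.54). TBK1 had a log2 fold change of -0.11, the cGAMP hydrolase ENPP1 of 0.44, the cGAMP importer SLC19A1 of -0.38 and the channel subunit LRRC8A of -0.56. CGAS was below the limit, with 1 and 3 counts. Sensors of RNA were raised as well: 6 of 9 genes of that list were raised and 0 lowered, with IFIH1 (MDA5) from 229 to 9709 normalized counts (5.41), RIGI from 330 to 9988 (4.92), DHX58 (LGP2) from 145 to 1678 (3.54) and TLR3 from 35.5 to 232 (2.71), while the adaptors MAVS and TICAM1 had values of -0.11 and -0.30.

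Antiviral effectors rose almost as a block. Of 30 such genes, all of them analysed, 29 were raised and 0 lowered, with a median log2 fold change of 4.05 beside a median of -9.96e-05 over all genes. IFITM2, at 0.52, was the member short of the threshold. OASL, a 2'-5'-oligoadenylate synthetase-like protein, went from 118 to 24312 normalized counts (7.69, interval 7.44 to 7.94), the GTPase MX2 from 10.3 to 1760 (7.42), IFIT2, which binds viral RNA, from 467 to 69721 (7.22) and RSAD2 (viperin) from 45.7 to 6498 (7.15). IFIT2 was the most abundant raised gene of the library. OAS1, a 2'-5'-oligoadenylate synthetase, went from 119 to 3757 (4.99). Transmembrane proteins stood at the lower end, with IFITM3 at 0.70 and BST2 (tetherin) at 1.26.

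Enzymes that attach small modifiers rose with the effectors. All 6 genes of the ISG15 system, which links the ubiquitin-like protein ISG15 to other proteins, were raised: ISG15 from 350 to 16952 normalized counts (5.60), the protease USP18 (5.08), the ligases HERC5 from 1375 to 31060 (4.50) and HERC6 (3.22), the conjugating enzyme UBE2L6 (1.90) and the activating enzyme UBA7 (1.41). All 7 genes of a list of IFN-linked PARPs, which mostly add ADP-ribose to proteins, were raised, among them DTX3L, which is a ubiquitin ligase and not a PARP, with ZC3HAV1 (ZAP), which binds CpG-rich viral RNA, from 720 to 31419 (5.45) and PARP14 from 1894 to 16138 (3.09). All 5 APOL genes rose, with APOL3 at 2.92 and APOL6 at 4.03, and APOL4 from 1 to 30 counts (log2 ratio 5.42). So did all 5 guanylate-binding protein genes, from 0.80 for GBP2 to 4.53 for GBP4. Of 6 genes of PML bodies and the SP100 family 4 rose, led by SP110 (2.73), and SP140 fell (-0.88). Of 6 genes for RNA- and DNA-editing deaminases 3 rose, APOBEC3G (from 24.3 to 64.1 normalized counts), ADAR (0.95) and APOBEC3F (0.86). APOBEC3A, under the limit of mean count, had 0 and 19 counts.

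An ISG signature of 38 genes, which the study took from earlier work on other samples, had 37 raised, 0 lowered and a median log2 fold change of 2.91 in WT/-, with PSME2 (0.24) as the member short of the threshold. Of a list of 324 genes of pattern recognition receptor (PRR) pathways, 248 were analysed, and 57 of these were raised and 30 lowered, or 23.0% and 12.1%, with a median of 0.06, beside 11.9% and 8.77% of all genes. By functional class, sensors had 14 raised and 5 lowered of 52, signal transducers 17 and 10 of 87, effectors 11 and 11 of 35, regulators 7 and 2 of 30, transcription factors 5 and 1 of 17 and adaptors 3 and 1 of 16. The 9 accessory molecules and 2 secondary receptors had 0 raised and 0 lowered.

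**Figure D2:**
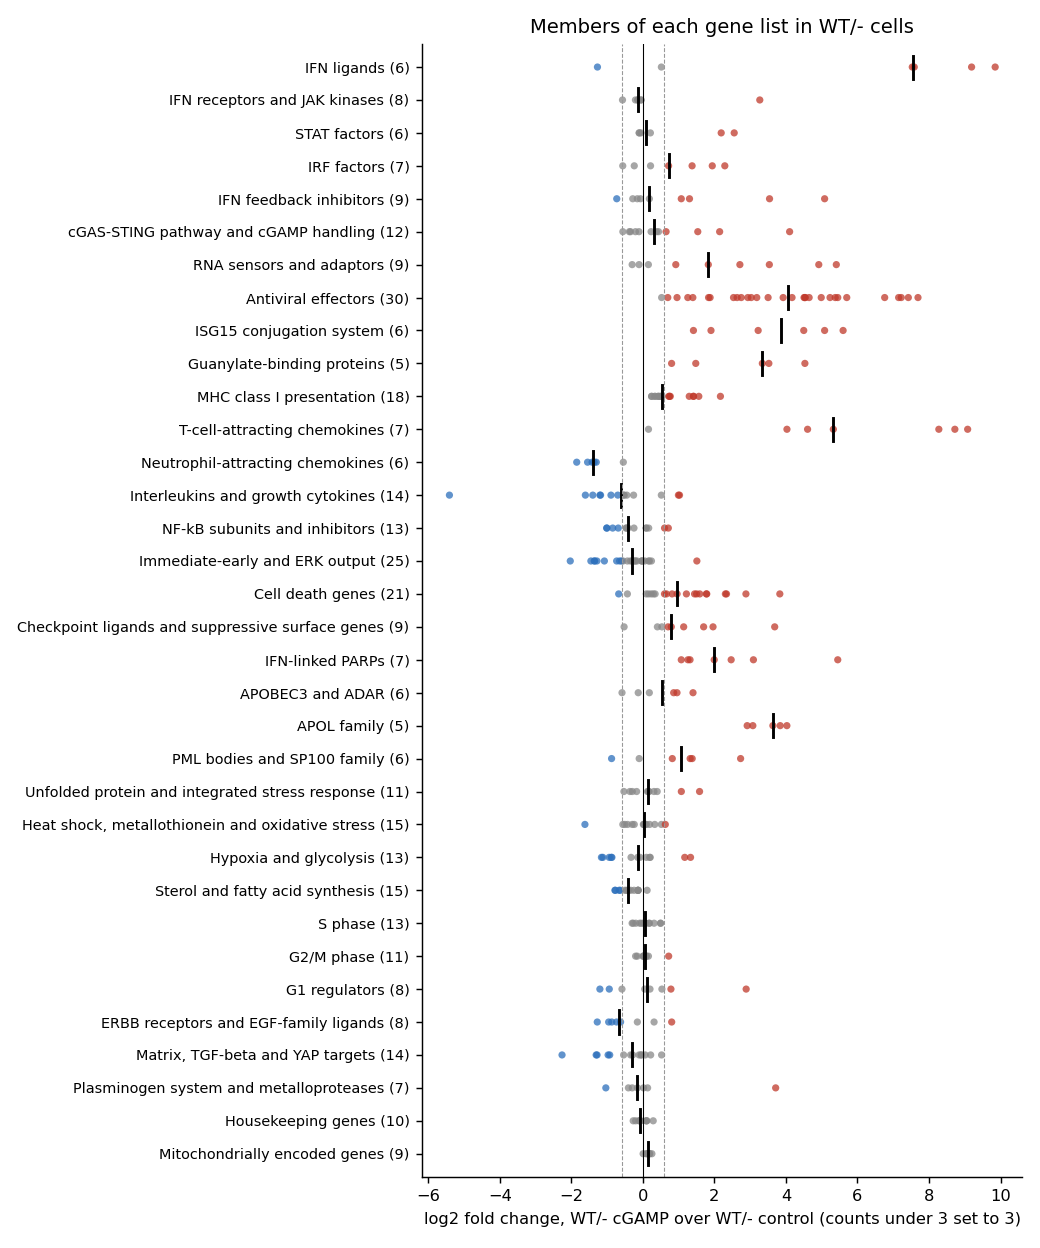
Each point is a member of a gene list, placed by its log2 fold change in WT/- (x axis), with red for raised, blue for lowered and grey for neither, a black bar for the list's median and dashed lines at 1.5-fold; the number analysed stands beside the list's name. Antiviral effectors, the ISG15 system, APOL genes and T-cell-attracting chemokines lie to the right, neutrophil-attracting chemokines lie to the left, and S phase, housekeeping and mitochondrially encoded genes lie near 0.

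Genes of antigen presentation by MHC class I had smaller folds, most of them short of the threshold. Of 18 genes of the pathway, 8 were raised, 0 were lowered and 10 passed in neither direction, and all 18 had positive values (0.24 to 2.17, median 0.53). TAP1, a subunit of the transporter that brings peptides to MHC class I, went from 1992 to 8955 normalized counts (2.17, interval 2.10 to 2.24), NLRC5, the transactivator of these genes, from 683 to 2019 (1.56), TAP2 from 1034 to 2761 (1.42) and the tapasin-related TAPBPL from 73 to 194 (1.41). Classical heavy chains stayed short of the threshold, at 0.54 for HLA-B and 0.47 for HLA-C, while B2M, their shared light chain, went from 19766 to 33091 (0.74). RAET1L, a ligand of the natural killer receptor NKG2D, was among the 15 highest folds, from 21.5 to 2285 (6.73, interval 6.14 to 7.32).

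Several genes for checkpoint ligands rose too. Of 9 analysed genes on a list of checkpoint ligands and other suppressive genes, 6 were raised and 0 lowered, against 11.9% and 8.77% of all genes. The call of TNFRSF14 came from 29 and 33 counts, with an interval from -0.01 to 1.42. ICOSLG, a further member, was left out of the count because its symbol stands for 2 features, which had 213 and 78 counts (ENSG00000160223, normalized 199 and 104) and 193 and 133 counts (ENSG00000277117, normalized 180 and 178). The former fell past the threshold (-0.93). CD274 (PD-L1) went from 109 to 1405 normalized counts (3.69, interval 3.41 to 3.96), LGALS9 (galectin-9) from 40.1 to 156 (1.96), IDO1, which breaks down tryptophan, from 1234 to 4004 (1.70) and PDCD1LG2 (PD-L2) from 34.5 to 76.1 (1.14). CD47 (0.53), NT5E (0.41) and PVR (-0.53) stayed short of the threshold.

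Chemokine genes changed in both directions. Of 7 genes for chemokines that attract T cells and natural killer cells, 6 were raised and 0 lowered. CXCL11 went from 4 to 1513 counts (9.08, interval 7.72 to 10.44), CXCL10 from 9 to 2657 (8.72, interval 7.79 to 9.65) and CCL5 from 15 to 3246 (8.27). CXCL9, which shares the receptor CXCR3 with CXCL10 and CXCL11, went from 0 to 51 counts, at least 24.3-fold higher, and CCL4 from 1 to 84, a log2 ratio of 6.91 (interval 4.40 to 9.42). Of 6 genes of the list of neutrophil-attracting chemokines, ligands of CXCR1 and CXCR2 together with the CCR6 ligand CCL20, 5 were lowered and 0 raised. CXCL8 (IL-8), the most abundant of all cytokine genes of the lists, went from 46002 to 17893 normalized counts (-1.36, interval -1.39 to -1.33), CXCL1 from 12533 to 5075 (-1.30), CXCL2 from 4593 to 1718 (-1.42), CXCL3 from 4497 to 1540 (-1.55) and CCL20 from 1372 to 381 (-1.85). CXCL5 had 23 and 11 counts (-0.55, interval -1.56 to 0.47). The opposite changes lay on the same chromosome. CXCL8, CXCL1, CXCL3 and CXCL2 start within 356.5 kb of each other on chromosome 4 (from 73740519), and CXCL9, CXCL10 and CXCL11 lie in a stretch from 76001275 to 76041415, which begins 2260.8 kb after the start of CXCL8.

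Other cytokines fell more often than they rose. Of 14 interleukins and growth cytokines, 7 were lowered and 2 raised, against 8.77% and 11.9% of all genes. CSF2 (GM-CSF) had the largest fall of all genes past the count limit, from 304 to 5 counts (-5.41, interval -6.65 to -4.17). IL1B went from 2101 to 689 normalized counts (-1.61), TNF from 4620 to 2010 (-1.20), IL1A from 14133 to 7616 (-0.89), LIF from 24229 to 14898 (-0.70) and IL23A from 34 to 9 counts (-1.40). IL33 was called lowered from 13 and 4 counts, with an interval from -2.73 to 0.36. The raised members were IL7 (1.02) and IL15 (0.99), which support T and natural killer cells. IL6 went from 6939 to 9924 (0.52), short of the threshold. Of 13 NF-kB subunits and inhibitors, 4 were lowered, BCL3 (-1.01), NFKBIE (-1.01), NFKBIB (-0.84) and REL (-0.69), and 2 raised, NFKBIZ (0.71) and TNIP1 (0.61), while NFKBIA, a standard NF-kB target, had 0.09. The raised share of this list, 15.4%, was near the 11.9% of all genes.

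Some genes of the growth-factor response fell. Of 25 immediate-early and ERK output genes, 9 were lowered and 1 raised, or 36% and 4%, against 8.77% and 11.9% of all genes. DUSP6, a phosphatase that ERK induces and that acts back on ERK, went from 2368 to 580 normalized counts (-2.03, interval -2.18 to -1.88), FOSL1 from 12173 to 4444 (-1.45), EGR2 from 1582 to 616 (-1.36) and FOSB from 5680 to 2236 (-1.34). FOS (-0.02), JUNB (-0.02), EGR1 (-0.28) and JUN (-0.21) stayed short of the threshold. SPRY2, an inhibitor of the same pathway, was the member that rose, from 689 to 1961 (1.51, interval 1.38 to 1.64), while SPRY4 fell from 1183 to 561 (-1.08). Of 8 ERBB receptors and EGF-family ligands 5 were lowered, AREG (-1.28), HBEGF (-0.96), TGFA (-0.87), EGFR from 8945 to 5372 (-0.74) and EREG (-0.62), and BTC was raised (0.81). ERBB2, which SKOV3 cells carry in many copies, had 51707 and 46462 (-0.15).

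Of 14 matrix, TGF-beta and YAP target genes, 5 were lowered and 0 raised, against 8.77% and 11.9% of all genes. The lowered genes were ANKRD1 from 134 to 28 normalized counts (-2.26), CCN1 (CYR61) from 8525 to 3447 (-1.31), SNAI2 from 3788 to 1559 (-1.28), CCN2 (CTGF) from 5642 to 2876 (-0.97) and AXL from 7244 to 3809 (-0.93). FN1 (0.52) and VIM (-0.04) were short of the threshold. Large falls were also found outside that list. DKK1, a secreted inhibitor of WNT signaling, went from 1839 to 144 (-3.67, interval -3.95 to -3.39), and PTX3, a secreted pattern recognition protein, from 1380 to 210 (-2.72, interval -2.96 to -2.48). EDN2 (endothelin-2) went from 103 to 3 counts (-4.58), TRIML2 from 100 to 4 (-4.13), SELE (E-selectin) from 64 to 4 (-3.48), LY6K from 82 to 6 (-3.26) and ASB2 from 62 to 7 (-2.63), where intervals are wide because the cGAMP counts are small. In the plasminogen system the receptor and its ligand moved in opposite directions, with PLAUR (uPAR) from 1102 to 14450 (3.71, interval 3.63 to 3.80) and PLAU (uPA) from 19911 to 9713 (-1.04).

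Further growth factor genes, chosen after their values were seen and not counted as a group, included PDGFB from 2757 to 463 normalized counts (-2.57), INHBA from 6051 to 1442 (-2.07), BMP2 from 935 to 227 (-2.04), BDNF from 901 to 234 (-1.95) and FGF18 from 257 to 69.5 (-1.89). FGF2 went the other way, from 13262 to 28817 (1.12).

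Most analysed genes of the cell death list rose. Of 21 analysed, 14 were raised and 1 lowered, against 11.9% and 8.77% of all genes, with a median of 0.96. PMAIP1 (NOXA), a BH3-only protein that opposes MCL1, went from 2260 to 32120 normalized counts (3.83, interval 3.77 to 3.89) and was among the 10 most abundant raised genes. FAS, a death receptor, went from 176 to 1300 (2.88), BBC3 (PUMA) from 258 to 1302 (2.34) and TNFSF10 (TRAIL) from 925 to 3189 (1.79). BCL2L11 (BIM), another BH3-only gene, went from 243 to 481 counts, past the threshold. Among BCL2 family members short of the threshold were the survival genes MCL1 at 0.34 and BCL2L1 (BCL-XL) at -0.43 and the death-promoting BAK1 at 0.29 and BAX at 0.09, and BID was lowered (-0.68).

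Lists of stress, metabolism and the cell cycle held both changed and unchanged genes. Over all genes 11.9% were raised and 8.77% lowered. The heat shock list had 6.67% each way, and the raised shares were 9.09% for G2/M, 15.4% for hypoxia and 18.2% for the unfolded protein list. Of 11 genes of the unfolded protein and integrated stress responses 2 were raised, XBP1 from 3627 to 10881 normalized counts (1.58) and PPP1R15A (GADD34), which restores translation after stress, from 17702 to 37301 (1.08). ATF4 (-0.30), DDIT3 (-0.36) and HSPA5 (0.13) were short of the threshold. Of 15 heat shock, metallothionein and oxidative stress genes 1 was raised, GCLM (0.63), and 1 lowered, MT1F (-1.62, from 44 to 10 counts). Of 13 hypoxia and glycolysis genes 2 rose, HK2 (1.33) and BNIP3 (1.17), and 5 fell, DDIT4 (-1.16), ADM (-1.12), PFKFB4 (-0.94), VEGFA (-0.89) and PFKFB3 (-0.87). Of 15 sterol and fatty acid synthesis genes 4 fell, among them MVD (-0.78), INSIG1 (-0.77) and SQLE (-0.66), and 0 rose. Of the S phase genes 0 of 13 passed the threshold, and of the G2/M genes 1 of 11 did, AURKB (0.72). Among 8 G1 regulators CDKN2C (p18), a CDK inhibitor, went from 317 to 2348 (2.89) and CDKN1A (p21) from 1132 to 1950 (0.78), while GADD45A (-1.20) and GADD45B (-0.94) fell. Of the 11 epithelial markers, CLDN4 (from 300 to 848 normalized counts) and WT1 (from 2 to 4 counts) were called raised, and PAX8 (-0.92) and KRT7 (-0.66) lowered.

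Raised genes also stood next to each other on chromosomes. There were 13 runs of at least 3 neighbouring analysed genes that were each raised at least 4-fold. They held IFIT2, IFIT3, IFIT1 and IFIT5 on chromosome 10, OAS1, OAS3 and OAS2 on chromosome 12 (105.9 kb), IFNL3, IFNL2 and IFNL1 on chromosome 19 (55.2 kb), APOL3, APOL4, APOL2 and APOL1 on chromosome 22 (127.2 kb), CXCL9, CXCL10 and CXCL11 on chromosome 4 (40.1 kb), and HERC6 with HERC5 and PPM1K on the same chromosome. DUOX2, DUOXA2 and DUOXA1 on chromosome 15 (37.3 kb) encode an enzyme that makes hydrogen peroxide at the cell surface and its maturation factors, and DUOX2 went from 2 to 136 counts, a log2 ratio of 6.60 (interval 4.73 to 8.48). The run of the IFIT genes, with PANK1 and KIF20B at its end, held 7 genes. Neighbours were taken among analysed genes only, and some runs were wide. PTGS2, PLA2G4A and RGS13 spanned 5988.5 kb, the run from ACER2 to MLLT3 1213.5 kb and that of the IFIT genes 491.3 kb. The runs were looked for after the values were seen.

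Matches to the ISRE core were found in a larger share of the genes with larger folds. A promoter window of RefSeq was found by symbol for 11175 (73.9%) of the analysed genes, and the 250 bases before the start were searched on both strands. The ISRE core was present in 20 of 71 genes raised at least 16-fold (28.2%, interval 19% to 39.5%), in 12.4% of 185 raised 4- to 16-fold, in 5.89% of 951 raised 1.5- to 4-fold and in 2.84% of 9126 that were neither raised nor lowered. It was in 3.02% of 795 genes lowered 1.5- to 4-fold and in 0 of 34 lowered further (upper limit 10.2%), beside 3.44% of all matched genes and 3.02% of all 35116 windows. Of the 23 antiviral effectors with a window, 17 held it, while OAS1, CMPK2, XAF1, SAMD9L, ZC3HAV1 and IFI35, all of them raised, had no match in these letters.

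GGAANTTCC was rare among raised and lowered genes alike, and kappa-B sites with other letters were not searched. It was present in 1.16% of all matched genes and 0.826% of all windows, in 3 of the 71 genes raised at least 16-fold, which were IFNB1, CXCL10 and CXCL11, and in 5 of the 6 neutrophil-attracting chemokine genes, all but CCL20. TGANTCA, the core of the AP-1 site, was found in 6.34% of matched genes and 6.57% of windows, in 12.7% of the genes raised at least 16-fold (interval 6.81% to 22.4%), in 9.69% of those lowered 1.5- to 4-fold (interval 7.82% to 11.9%) and in 5.79% of those that were neither. Genes with several annotated starts have several windows (1.45 per gene on average) and a match in any of them was counted. A base can belong to matches of more than 1 motif.

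**Figure D3:**
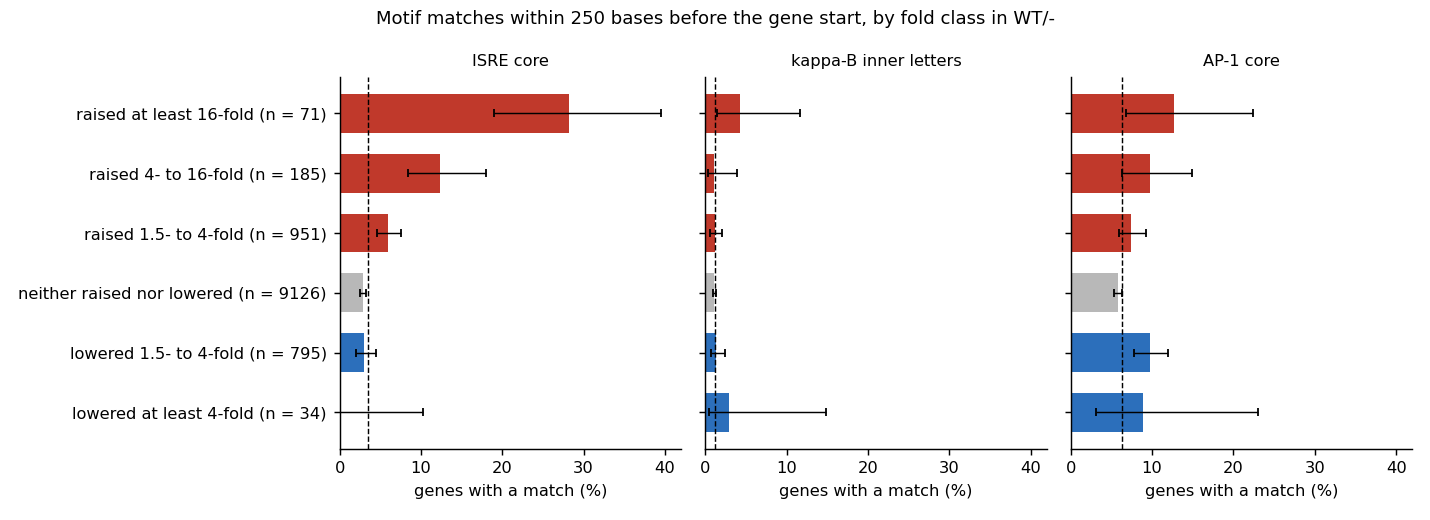
Bars give the percentage of genes with at least 1 match within 250 bases before the gene start, for each fold class in WT/- and each motif (panels), with 95% Wilson intervals and a dashed line at the share of all matched genes. The share with the ISRE core falls from 28.2% in the class raised at least 16-fold to 2.84% in genes that were neither raised nor lowered, while the kappa-B letters stay between 1.08% and 4.23% in all classes.

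WT/- cells shared most of their large rises with the parent line and fewer with HAQ/-. In WT/HAQ cells 1943 genes (12.8%) were raised and 1861 (12.3%) lowered, and in HAQ/- cells 1021 (6.75%) and 872 (5.76%). Of the 1796 genes raised in WT/-, 1168 were also raised in WT/HAQ, which is 65% of the WT/- list and 60.1% of the WT/HAQ list. In HAQ/-, 569 were also raised, or 31.7% of the WT/- list and 55.7% of the HAQ/- list. There were 470 genes raised in all 3 lines, and 529 of the genes raised in WT/- were raised in neither other line. Of the 1327 lowered genes, 741 were also lowered in WT/HAQ (55.8% of the WT/- list and 39.8% of the WT/HAQ list), 282 in HAQ/- (21.3% and 32.3%), 203 in all 3 lines and 507 in WT/- alone. Among the 378 genes raised at least 4-fold in WT/-, 348 passed the threshold in WT/HAQ and 232 in HAQ/-, and among the 68 lowered at least 4-fold 43 and 26 did. The 3 contrasts use different libraries, each with 1 library a side.

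Side by side, IFNB1, CXCL10 and CCL5 reached lower levels in treated HAQ/- cells than in the other treated cells. IFNB1 had 1.87 and 2583 normalized counts in WT/- (control and cGAMP), 4.42 and 1259 in WT/HAQ, and 5.23 and 16.4 in HAQ/-. CXCL10 had 8.40 and 3549 in WT/-, 7.96 and 1968 in WT/HAQ, and 3.49 and 9.85 in HAQ/-. CCL5 had 14 and 4335, 7.96 and 4385, and 13.1 and 273. Antiviral effectors rose in all 3 lines, with 29, 29 and 27 of 30 genes raised and medians of 4.05, 4.93 and 3.61 for WT/-, WT/HAQ and HAQ/-. Several genes of cell death and the cell cycle rose in WT/- and WT/HAQ and were short of the threshold in HAQ/-. FAS had log2 fold changes of 2.88, 2.46 and 0.29 in the same order, BBC3 of 2.34, 2.89 and 0.43, and CDKN2C of 2.89, 3.48 and 0.26. PTGER4, a prostaglandin E2 receptor chosen later for its values, gave log2 fold changes of 5.45, 4.75 and 0.40.

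**Figure D4:**
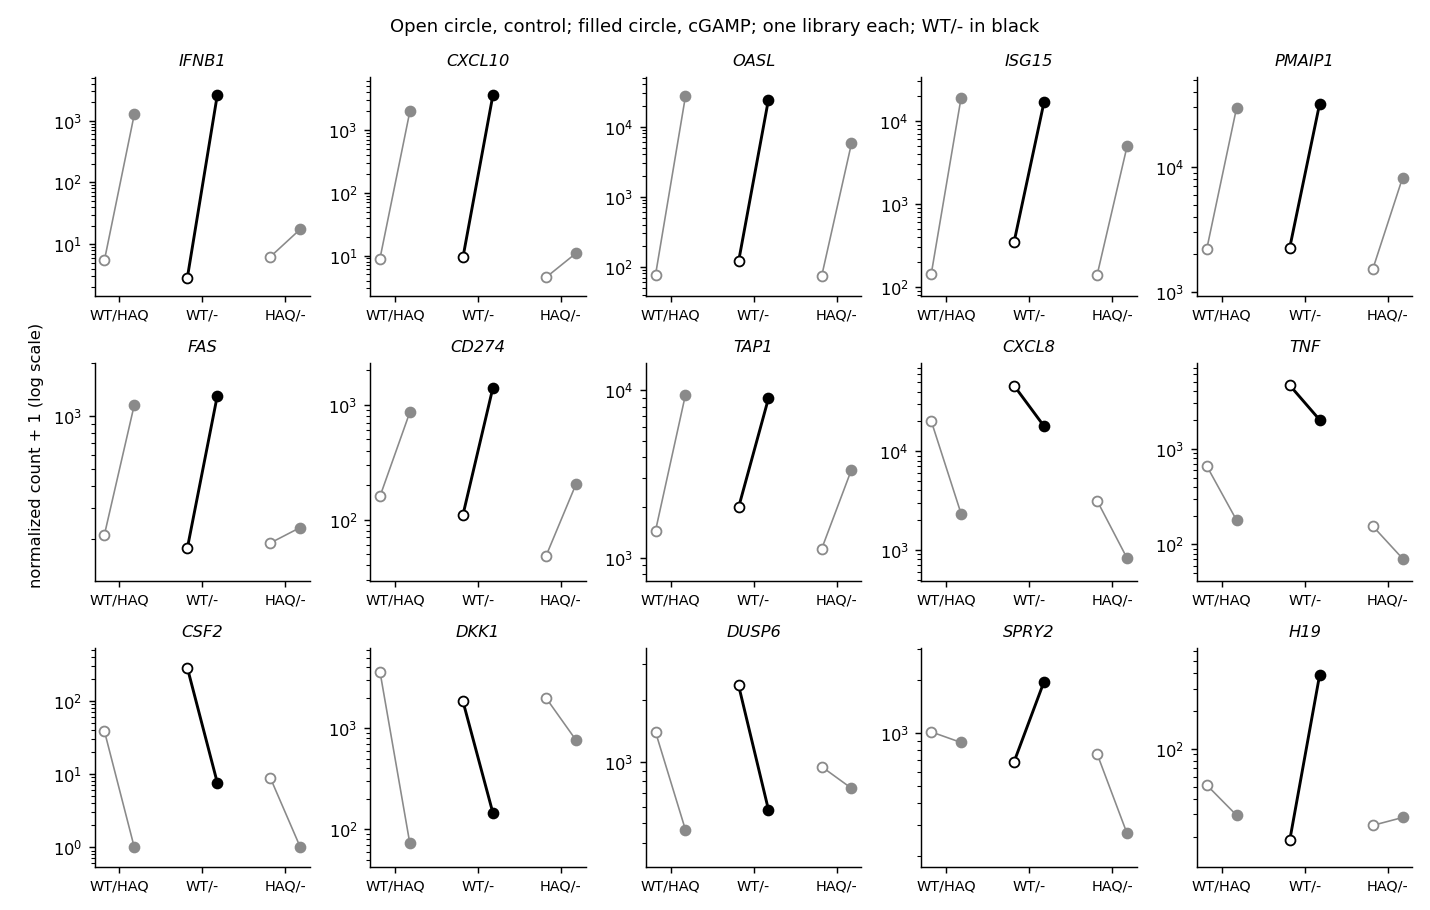
Normalized counts plus 1 (log scale) of 15 genes in the 6 libraries, with an open circle for control and a filled circle for cGAMP and WT/- in black. IFNB1 and CXCL10 rise steeply in WT/- and WT/HAQ and little in HAQ/-, CXCL8 and TNF start higher in WT/- than in the other lines and fall in all 3, and SPRY2 and H19 pass the threshold upward in WT/- alone.

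**Figure D5:**
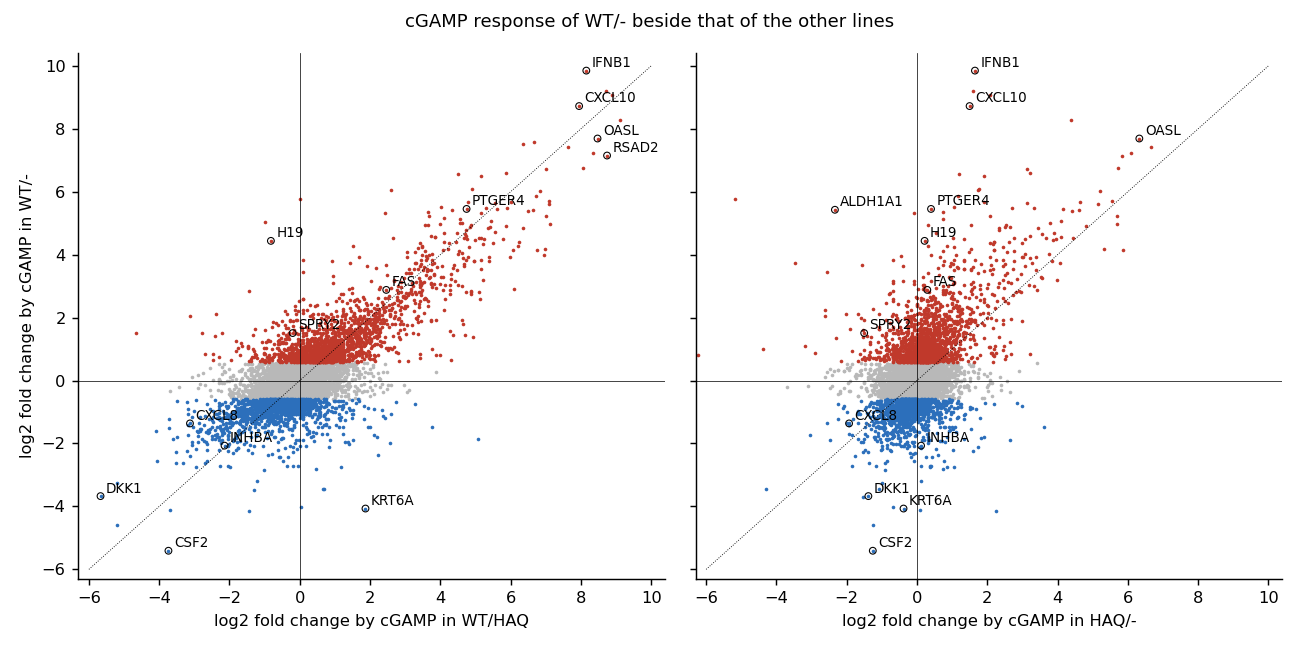
Each point is a gene, with the log2 fold change by cGAMP in WT/- on the y axis and in WT/HAQ (left) or HAQ/- (right) on the x axis, red where raised and blue where lowered in WT/-, and a dotted line where both are equal. IFNB1, CXCL10 and PTGER4 lie near the dotted line on the left and far above it on the right, and H19 and KRT6A lie away from it on both sides.

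The levels from which WT/- started differed as well. Compared with the WT/HAQ control library, the WT/- control was at least 1.5-fold higher for 17 of the 30 antiviral effectors and lower for 0, beside 13.0% of all genes that were higher, with a median log2 difference of 0.63. After cGAMP the median difference was 0.01, with 2 genes higher and 3 lower. IFIT2 had 467 normalized counts in the WT/- control and 198 in the WT/HAQ control, but 69721 and 64285 after cGAMP. Inflammatory genes showed a larger gap that cGAMP did not close. The WT/- control was higher than the WT/HAQ control for 5 of 6 neutrophil-attracting chemokines (median difference 1.42), for 11 of 14 interleukins and growth cytokines (1.80) and for 11 of 13 NF-kB genes (0.90). After cGAMP the median differences were 2.91, 1.58 and 1.36. CXCL8 had 46002 and 17893 in WT/-, 20328 and 2332 in WT/HAQ and 3138 and 822 in HAQ/-, and TNF had 4620 and 2010, 661 and 178, and 154 and 70.1. The 5 chemokine genes that fell were still higher in treated WT/- cells than in untreated HAQ/- cells, with CCL20 at 381 against 11.3 and CXCL1 at 5075 against 1172. These level comparisons were added after the values were seen.

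Few genes changed strongly in WT/- without a change in the same direction in another line. The rule was at least 2-fold in WT/-, with at least 50 counts in a WT/- library. In both other lines the gene had to be under 1.2-fold in the same direction. Genes with too few counts for a fold there were kept, among them UBD and CXorf49B. This gave 19 raised and 21 lowered genes. H19, an imprinted noncoding RNA, went from 17.7 to 385 normalized counts in WT/- (4.44, interval 3.78 to 5.10), from 50.4 to 28.5 in WT/HAQ and from 23.6 to 27.4 in HAQ/-. UBD (FAT10), a ubiquitin-like modifier that IFN-gamma and TNF induce, went from 9 to 56 counts (3.15, interval 2.16 to 4.15) and had at most 1 count in each of the other 4 libraries. THBS2 (thrombospondin-2) went from 70 to 7 counts (-2.80), and ANKRD23 from 61 to 11 (-1.95), against a rise of 1.30 in WT/HAQ. RP11-463I20.1 went from 0 to 69 counts in WT/- and fell in WT/HAQ (-0.99). CXorf49B went from 0 to 87 counts and RP11-529K1.3 from 54 to 10, the latter against 0.67 in HAQ/-.

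Several of the extreme entries were features that share sequence with a near-identical copy, and their estimates are uncertain. SULT1A3 went from 141 to 15 counts (-2.72), but the sum with SULT1A4 went from 203 to 221 (0.64, interval 0.37 to 0.91). The features named SMIM11 went from 153 to 6 (ENSG00000205670) and from 1 to 114 (ENSG00000273590), and their sum from 154 to 120 counts (0.16, interval -0.19 to 0.50). A second feature named MALAT1 (ENSG00000279576) had 66 and 0 counts, while all features of that name together had 51226 and 34860 (-0.04). KRT6A and KRT6B, which are similar keratins, summed to 272 and 9 counts (-4.40, interval -5.34 to -3.46), a fall in the sum as well. RP11-1035H13.3 went from 69 to 0 counts, at least 16.1-fold lower.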

How the data were processed

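The series measured mRNA of SKOV3 cells in 6 libraries, a control and a cGAMP library for each of the lines WT/HAQ, WT/- and HAQ/-, prepared with TRIzol and a TruSeq mRNA kit. The authors deposited a table of expected counts, estimated per gene for 60498 Ensembl identifiers and not normalized. The submitters' processing notes name STAR and RSEM, whose versions were not given in the sources used here, and the build hg38. Because estimation divides reads between similar genes, near-identical copies have uncertain values. Every count column matched 1 sample by its label.

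For this report the estimates were rounded and genes averaging 10 counts or more across the 6 libraries were kept. TMM factors (edgeR 4.0.16, R 4.3.3) brought the libraries to a common size. A fold divides a line's cGAMP library by its control after values under 3 counts were set to 3. Where both were at 3 or fewer no fold was given, where the control or the cGAMP library had 0 the fold is a lower bound, and where the control had 1 to 3 counts the ratio of the counts themselves is printed. List medians use the floored values. The 95% Wilson intervals come from how a gene's counts split between both libraries. They cover counting error only and leave out variation between cultures, which 1 library per group cannot show, so no test was run. Symbols and positions come from a gene name table and GENCODE 44 on GRCh38. Promoters and motif matches were read from a RefSeq table of GRCh38.p14. Scripts (Python 3.11.15, pandas 2.3.3, numpy 2.4.6, scipy 1.17.1, matplotlib 3.10.9) were tested on simulated data.

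Members, gene lists and rules were chosen with earlier results of these data known. The text names the 15 highest folds with at least 50 counts in the WT/- cGAMP library and the 15 lowest with at least 50 in the control. It names up to 4 members at each end of a list and members a reader would look for. It also names the 10 most abundant raised genes, STING1 and 5 genes at each end that moved at least 2-fold in WT/-. These 5 were under 1.2-fold in the same direction, or without a fold, in the other lines. Some genes that the rule covers are not reported here. Anything else was picked once its value had been seen. The alternatives were size factors of DESeq2 1.42.0, totals without TMM, thinning to the smallest library, a floor at 10 counts, an added prior of 2 counts, other limits on mean count (1 and 50), and other folds (2 and 1.2).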

Additional observations from a re-analysis of the deposited data

Results flagged for a closer look

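Of the 441 genes looked at by name, 246 passed the threshold in WT/-, and 10 of these passed it in the opposite direction in another line with counting intervals on opposite sides of no change in both lines. With 1 library a side in each line, the difference between lines was not tested for any of them. IL33, IL23A, THBS2 and RND1 also passed the threshold in opposite directions, with an interval that reached no change in at least 1 line. Over all genes, without the rule on intervals, 88 of the 1796 genes raised in WT/- were lowered in WT/HAQ and 140 in HAQ/-. Of the 1327 genes lowered in WT/-, 99 were raised in WT/HAQ and 99 in HAQ/-. SPRY2 had a log2 fold change of 1.51 in WT/- and -1.50 in HAQ/-, from 689 to 1961 and from 760 to 268 normalized counts. ALDH1A1, a retinaldehyde dehydrogenase, had 5.43 in WT/- and -2.34 in HAQ/-. PPP1R15A had 1.08 in WT/- and -0.70 in HAQ/-. H19 had 4.44 in WT/- and -0.82 in WT/HAQ, and KRT6A had -4.07 and 1.87. ANKRD23 had -1.95 in WT/- and 1.30 in WT/HAQ. RP11-463I20.1 had at least 5.04 in WT/-, a lower bound from 0 counts in the control, and -0.99 in WT/HAQ, and RP11-529K1.3 had -1.92 in WT/- and 0.67 in HAQ/-.

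The features named SMIM11 also moved in opposite ways. The first (ENSG00000205670) had -4.16 in WT/- and 2.24 in HAQ/-, and the second (ENSG00000273590) had 5.77 with its 1 control count set to 3 (7.35 as the ratio of the counts) and -5.19. Their summed counts had log2 fold changes of 0.16 in WT/- and -0.09 in HAQ/-.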

How the results depend on the processing

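The counts of genes followed the limits set on mean count and fold. There were 1796 raised and 1327 lowered genes, against 2865 raised at a mean count of at least 1, and 1046 raised and 720 lowered at a mean of at least 50. A threshold of 2-fold gave 994 raised and 525 lowered, and a threshold of 1.2-fold gave 3474 and 3395. Under DESeq2 size factors, totals without TMM, thinning, a floor of 10 counts or a prior of 2 counts, raised genes ranged from 1619 to 1849 and lowered genes from 1111 to 1563. With totals alone the median over all genes moved to -0.06 on the log2 scale and the raised share of changed genes from 57.5% to 50.9%. The counts of genes that moved the same way in all 3 lines, alternatives chosen after seeing the data, stayed within 329 to 535 (raised) and 136 to 254 (lowered). Of the named genes, IL33 changed sign, to 0.14 with a floor of 10 counts, because its 13 and 4 counts then lie at or near the floor. The calls of GCLM, GSDMD and TNIP1 were lost with totals alone, that of WT1 with thinning, and that of MYC at a mean count of at least 50. Calls were also gained, 12 with totals alone, 4 with thinning, 2 with DESeq2 size factors and 2 at a mean count of at least 1. The intervals and alternatives here hold no information on the spread between cultures. No paired analysis was possible because the WT/- comparison had 1 library a side and came from no test.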
